A study of Mus musculus with 6 samples.

Results

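The miR-1 strands of mouse skeletal muscle were taken as the listed mature miRNAs whose name begins with miR-1a- or miR-1b-. They numbered 5 of the 392 listed miRNAs, among 3034 listed small RNA features of all classes: mmu-miR-1a-3p, mmu-miR-1a-1-5p, mmu-miR-1a-2-5p, mmu-miR-1b-5p and mmu-miR-1b-3p, written below without the species prefix. The rule reads names and not levels. Small RNA had been sequenced from the skeletal muscle of 16-week-old C57BL6 males on normal chow. Of the 6 libraries, 3 came from controls (Sham) and 3 from mice after transverse aortic constriction (TAC), an operation in which the narrowed aortic arch puts a pressure load on the heart that ends in heart failure. The labels give a treatment time of 8 weeks for every sample and a harvest 8 to 10 weeks after constriction. They do not name the muscle, so fibre types may differ between samples, and they do not say whether each library is from a separate mouse. The p-values therefore measure only the spread between these libraries. The series title places the comparison in the role of a muscle miRNA in insulin resistance during heart failure.

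miR-1 is the best known miRNA of striated muscle. Its transcription is driven by the myogenic factors MyoD and Mef2 and by serum response factor, it is made together with miR-133a from shared primary transcripts, and it promotes differentiation of myoblasts by repressing genes such as Hdac4. A miRNA hairpin is cut into a 5p and a 3p strand. For miR-1a the 3p strand is loaded into Argonaute as the guide, and the 5p strands are the passengers, most of which are degraded. In the mouse both miR-1a hairpins give the same 3p strand, so miR-1a-3p cannot be assigned to a locus, while their 5p strands differ and carry the name of the locus.

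The mature strand of 1 of the 5 members is in the RefSeq table of GRCm38.p6. It is shown with both strands of miR-206, the skeletal muscle relative of miR-1, because the 5p strands resemble each other and because miR-206-3p is known to share its seed with miR-1a-3p. Capitals mark the seed, bases 2 to 8 counted from the 5′ end.
miR-1a-1-5p: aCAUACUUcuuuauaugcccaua
miR-206-5p: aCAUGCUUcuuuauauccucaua
miR-206-3p: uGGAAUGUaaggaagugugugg
miR-1a-1-5p spans bases 180389057 to 180389079 of chromosome 2, plus strand. miR-206-5p spans 20679017 to 20679039 and miR-206-3p spans 20679055 to 20679076 of chromosome 1, plus strand, in a hairpin within the noncoding gene Gm28653. miR-1a-1-5p and miR-206-5p were identical at 20 of 23 positions and at 6 of 7 seed positions. No other mature miRNA in the table had the seed of miR-1a-1-5p. The table holds only 1 of the 5 members, so it cannot tell whether miR-1a-2-5p shares this seed. The seed of miR-206-3p was shared by miR-6349 and miR-6382 in the table, neither of them listed in these libraries.

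In the GENCODE M21 annotation of GRCm38, Mir1a-1 lies on chromosome 2, bases 180389048 to 180389124 of the plus strand, in no annotated host gene. Mir133a-2 follows it on the same strand after a gap of 9254 bases. Mir1a-2 lies on chromosome 18, bases 10785481 to 10785552 of the minus strand. It is intronic in the noncoding gene Mir133a-1hg and antisense to the ubiquitin ligase gene Mib1, and Mir133a-1 follows it after 2504 bases. Mir1b is annotated on the plus strand, bases 10785446 to 10785567, in an intron of Mib1, so that its hairpin covers the whole of Mir1a-2 from the opposite side. As background, mature miR-1b-5p is largely the reverse complement of miR-1a-3p.

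The libraries held from 1695043 (Sham 3) to 5146811 (Sham 1) reads and from 1179365 to 3440232 UMIs of listed miRNAs, a UMI (unique molecular identifier) being a tag that marks 1 captured molecule before amplification. The miRNA share of all reads was 74.8%, 75.2% and 72.4% in Sham and higher in every TAC library, at 79.3%, 77.5% and 78.1%. The part of this difference in the values below was not tested. The libraries numbered 3 stood apart from the other libraries of their groups. In chi-square statistics per degree of freedom over miRNAs, Sham 1 and Sham 2 differed by 57.4 and either differed from Sham 3 by at least 327, while TAC 1 and TAC 2 differed by 61.3 and either differed from TAC 3 by more than 200. Results that rest on the libraries numbered 3 are given with and without them. The deposited columns number the TAC libraries before the Sham libraries, so group and column order cannot be told apart. Levels are UMIs per 1000000 UMIs of tested miRNAs after TMM scaling (CPM), a scaling that sets the bulk of miRNAs equal between libraries.

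The guide strand miR-1a-3p was the most abundant miRNA by mean level in both groups. In the order of library numbers it had 1667425, 1148664 and 485220 UMIs (Sham) and 1282138, 927966 and 1152803 UMIs (TAC), a total of 6664216. Scaled, these were 463162, 458356 and 341047 CPM in Sham and 500212, 453970 and 572752 CPM in TAC. The lowest level was in Sham 3 and the highest in TAC 3, and the groups overlapped because TAC 2 lay below Sham 1 and Sham 2. After miR-1a-3p came miR-133a-3p, its partner from the shared transcripts (126831 CPM over all libraries), then miR-26a-5p (36314 CPM), the endothelial miR-126a-3p (29656 CPM) and miR-378a-3p (28230 CPM).

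miR-1b-5p, the antisense strand, was the second of the members and number 36 among all miRNAs. It had 9350, 6618 and 2687 UMIs in Sham and 7798, 5476 and 6765 in TAC. This gave 2597, 2641 and 1889 CPM in Sham and 3042, 2679 and 3361 CPM in TAC. Each TAC library exceeded each Sham library, TAC 2 by a small margin over Sham 2. This separation was present only after TMM scaling. As shares of miRNA UMIs the values were 0.272%, 0.280% and 0.228% (Sham) and 0.271%, 0.255% and 0.295% (TAC), which overlapped. Its neighbours in the order of levels were miR-30e-5p (2789 CPM over all libraries) and miR-191-5p (2979 CPM) above and miR-23a-3p (2646 CPM) and miR-128-3p (2593 CPM) below, against 2701 CPM for miR-1b-5p. All 4 lay within the spread of miR-1b-5p over its libraries.

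The passenger strands were rare. miR-1a-1-5p, the passenger of the chromosome 2 locus, had 39, 67 and 12 UMIs in Sham and 102, 68 and 22 in TAC, or 10.8, 26.7 and 8.43 CPM in Sham and 39.8, 33.3 and 10.9 CPM in TAC. It was low in both libraries numbered 3 and in Sham 1. It stood at number 196, between miR-26a-2-3p and miR-493-5p above and miR-503-5p and miR-181c-5p below, all from 21.4 to 22.3 CPM. miR-1a-2-5p, the passenger of the chromosome 18 locus, had 14, 22 and 0 UMIs in Sham and 23, 11 and 3 in TAC, or 3.89, 8.78 and 0 CPM in Sham and 8.97, 5.38 and 1.49 CPM in TAC. It was lowest in both libraries numbered 3 and its groups overlapped widely. It stood at number 303, between miR-132-5p and miR-181c-3p above and miR-221-5p and miR-3057-5p below, all from 4.72 to 4.87 CPM.

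miR-1b-3p had 10, 10 and 0 UMIs in Sham and 13, 9 and 6 in TAC. It did not pass the filter on low counts and was not tested. Its 2.78, 3.99 and 0 CPM in Sham overlapped its 5.07, 4.40 and 2.98 CPM in TAC, and it stood at number 343 beside miR-26b-3p, miR-3061-3p, miR-1934-5p and miR-29b-1-5p. The 0 UMIs of miR-1a-2-5p and of miR-1b-3p in Sham 3 allow up to 2.54 UMIs per 1000000 miRNA UMIs at that library's depth. Pooled over each group and per 1000000 miRNA UMIs, miR-1b-3p was at 2.87 (95% Poisson interval 1.75 to 4.43) in Sham and 3.83 (2.54 to 5.53) in TAC. miR-1a-2-5p was at 5.16 (3.61 to 7.14) in Sham and 5.06 (3.56 to 6.97) in TAC, and miR-1a-1-5p at 16.9 (14.0 to 20.2) in Sham and 26.2 (22.7 to 30.2) in TAC. These intervals cover counting error only, not the spread between libraries.

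**Figure D1:**
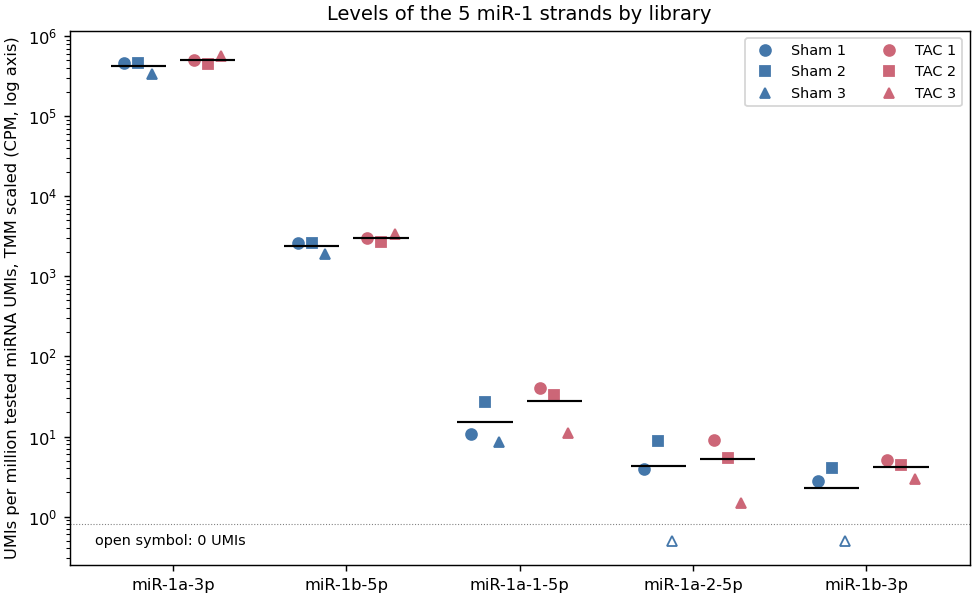
Level of each of the 5 miR-1 strands by library, in UMIs per 1000000 tested miRNA UMIs after TMM scaling, on a log axis, with Sham in blue, TAC in red, a symbol for each library number and a bar at each group mean. miR-1a-3p lies between 341047 and 572752 CPM, while miR-1a-2-5p and miR-1b-3p lie below 10 CPM and are at 0 UMIs in Sham 3 (open symbols).

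The order of the members held in most libraries. miR-1a-3p was above miR-1b-5p in 6 of 6 libraries, with 172 times its UMIs over all libraries. miR-1b-5p was above miR-1a-1-5p in 6 of 6, with 125 times the UMIs. miR-1a-1-5p was above miR-1a-2-5p within each of 6 libraries, with 4.25 times the UMIs, although the lowest level of the first (8.43 CPM) lay below the highest level of the second (8.97 CPM). miR-1a-2-5p and miR-1b-3p did not separate, since the first was higher in 4 of 6 libraries only. Adapter ligation favours some ends over others, so ratios between strands carry that preference as well as abundance.

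The strand bias of miR-1a was the steepest among the miRNAs with both strands listed. The 5p strands of both loci together held 383 UMIs beside the 6664216 of the 3p strand, or 0.00575% of both. Of the 104 other miRNAs with both strands listed, 0 had a lower share of their minor strand, and the median of those shares was 10.3%. The lowest share a miRNA can show depends on its own UMIs, and miR-1a-3p had the most. miRNAs whose minor strand was not listed are outside this count. The comparison therefore does not separate strand bias from abundance. The minor strand held 1.58% in miR-133a and 0.124% in miR-1b. For miR-1b the major strand was the 5p strand, the one complementary to miR-1a-3p.

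None of the tested members passed the test between TAC and Sham. By edgeR's quasi-likelihood test with Benjamini-Hochberg adjustment over all 322 tested miRNAs, 0 of 4 tested members passed the threshold of 0.05, against a background of 22% of all tested miRNAs (71, with 6.21% higher and 15.8% lower in TAC). The number of members at an unadjusted p under 0.05 was also 0, and DESeq2 and limma-voom called 0 of 4. The background count itself was 111 with the replicate number as a block, 129 without both libraries numbered 3, and 17, 29, 32 and 24 without Sham 1, Sham 2, TAC 1 and TAC 2. All 4 fold changes were above 0 (median 0.31 on the log2 scale, against 0.04 over all tested miRNAs, 51.2% of which were above 0). The groups did not overlap for 1 of the 5 members, miR-1b-5p, against 40.4% of all tested miRNAs (18% higher and 22.4% lower in TAC).

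Over the groups miR-1a-3p averaged 420855 ± 69157 CPM (Sham) against 508978 ± 59874 CPM (TAC), each as mean ± SD with n = 3. Its log2 fold change of TAC against Sham was 0.27 (SE 0.16, 95% interval -0.11 to 0.65, adjusted p = 0.264). The interval reaches 0.65 on the side of a rise and ends at -0.11 on the side of a fall. In bulk muscle, fewer cells or fibres of a type and less RNA per cell cannot be told apart. miR-1b-5p averaged 2376 ± 422.2 CPM (Sham) against 3027 ± 341.3 CPM (TAC), and its log2 fold change was 0.35 (SE 0.21, 95% interval -0.13 to 0.83, adjusted p = 0.264). For the rare passengers the intervals were wide. miR-1a-1-5p went from 15.3 ± 9.95 to 28.0 ± 15.1 CPM with a log2 fold change of 0.85 (95% interval -0.50 to 2.21, adjusted p = 0.321), and miR-1a-2-5p from 4.22 ± 4.40 to 5.28 ± 3.74 CPM with 0.24 (95% interval -1.77 to 2.26, adjusted p = 0.849). Leaving out Sham 2 moved the first to 1.51 and leaving out TAC 1 moved the second to -0.38.

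The fold changes of both abundant members depended on the scaling. Scaled by library size alone, the log2 fold change of miR-1a-3p was -0.0019 and that of miR-1b-5p 0.074. With library sizes counted without miR-1a-3p they were -0.0058 and 0.069. The same change of scaling moved the median over all tested miRNAs from 0.04 to -0.24. TMM factors ran from 1.05 to 1.21 in Sham and from 0.877 to 0.953 in TAC, so the groups did not overlap in the scaling itself. Relative to the median of all miRNAs, miR-1a-3p was at about the same place under either scaling. Without both libraries numbered 3, chosen after seeing the data, the TMM-scaled log2 fold change was 0.047 for miR-1a-3p and 0.12 for miR-1b-5p.

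**Figure D2:**
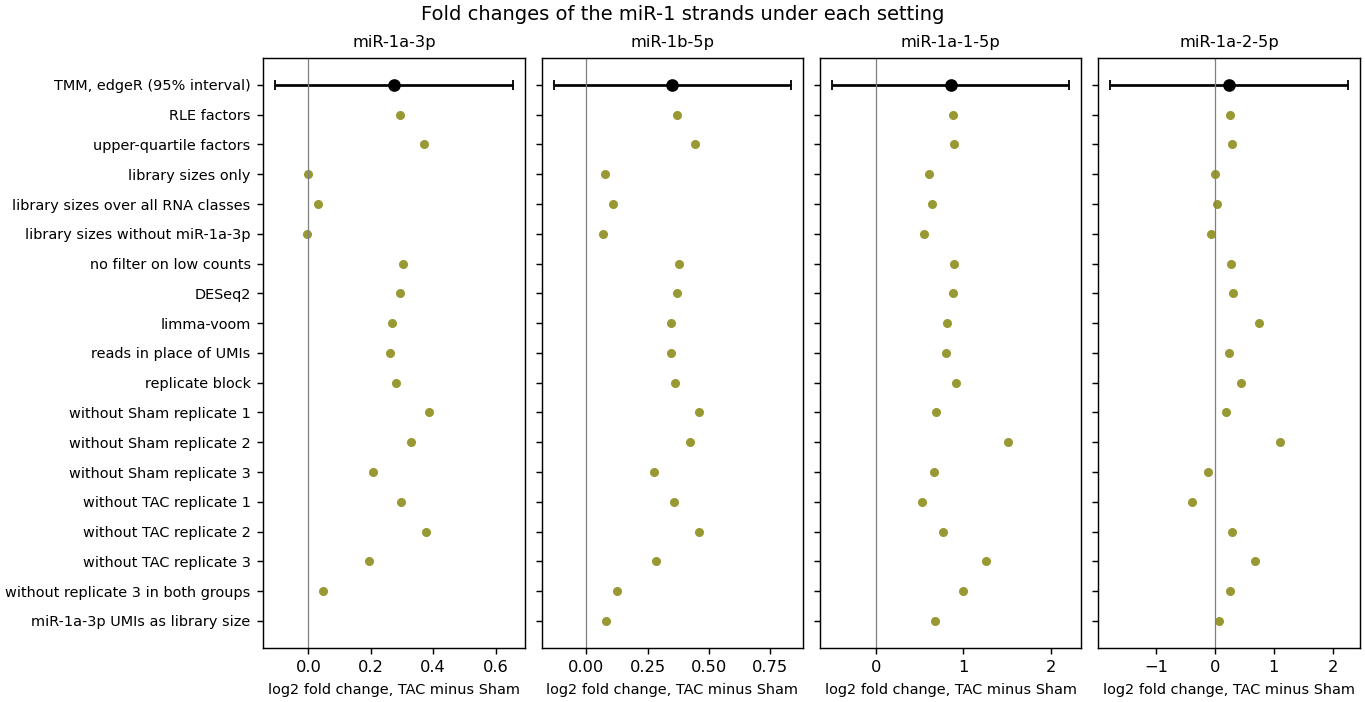
Log2 fold change of TAC against Sham (horizontal axis, a separate range in each panel) for the 4 tested miR-1 strands under each setting (vertical axis), with the 95% interval drawn for the edgeR fit with TMM factors only. miR-1a-3p moves from 0.27 to -0.0019 with library sizes only, and miR-1a-2-5p changes sign without TAC 1.

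As a share of miRNA UMIs, which needs no scaling factor, miR-1a-3p held 48.5%, 48.7% and 41.1% in Sham and 44.6%, 43.3% and 50.2% in TAC. The Wilson 95% intervals of these shares extended at most 0.1 points to either side, well below the spread between libraries. The means of 46.1% ± 4.29 (Sham) and 46.0% ± 3.71 (TAC) differed by -0.058 percentage points (SD, n = 3, exact two-sided permutation p = 1.0, where the smallest p for 3 against 3 is 0.1). The equal means rest on the libraries numbered 3. In Sham, number 3 had the lowest share, and in TAC it had the highest. Without both, the difference was -4.64 points and the groups did not overlap (exact permutation p = 0.333, the smallest that 2 against 2 allows). All 5 members together held 46.4% ± 4.32 and 46.3% ± 3.72 of miRNA UMIs.

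Ratios between strands of the same library remove scaling and ask whether the loci or the strands moved apart. Of 6 ratios tested, 0 passed the threshold after adjustment over the 6. The design could not have reached it, since 3 against 3 allows no exact permutation p below 0.1. miR-1a-1-5p per 100000 miR-1a-3p UMIs was 2.34, 5.83 and 2.47 in Sham and 7.96, 7.33 and 1.91 in TAC. TAC 3 had the lowest value of all 6, while TAC 1 and TAC 2 had the highest. The difference was 0.56 on the log2 scale (exact permutation p = 0.5, adjusted p = 0.75), and 1.04 without both libraries numbered 3. For miR-1a-2-5p the corresponding values were 0.840, 1.92 and 0 in Sham and 1.79, 1.19 and 0.260 in TAC, with a log2 difference of 0.66 (exact permutation p = 0.7, adjusted p = 0.84). That difference was -0.56 without Sham 3 and 0.21 without both libraries numbered 3, and the pooled UMIs gave 1.09 in Sham and 1.10 in TAC.

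The ratio of the passengers, miR-1a-1-5p to miR-1a-2-5p, compares the loci on chromosomes 2 and 18. It was 2.79 and 3.05 in Sham 1 and Sham 2, undefined in Sham 3 (12 against 0 UMIs), and 4.43, 6.18 and 7.33 in TAC. The 2 defined Sham values lay below all TAC values. With 0.5 UMI added to both counts, so that Sham 3 enters, the log2 difference was -0.097 (exact permutation p = 1.0). It was 0.16 with 1 UMI added and 0.95 without Sham 3 (exact permutation p = 0.2, the smallest for 2 against 3). The pooled UMIs gave a ratio of 3.28 in Sham and 5.19 in TAC. A difference between the loci was therefore not resolved at this depth, where 73 UMIs of miR-1a-2-5p were counted in all.

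**Figure D3:**
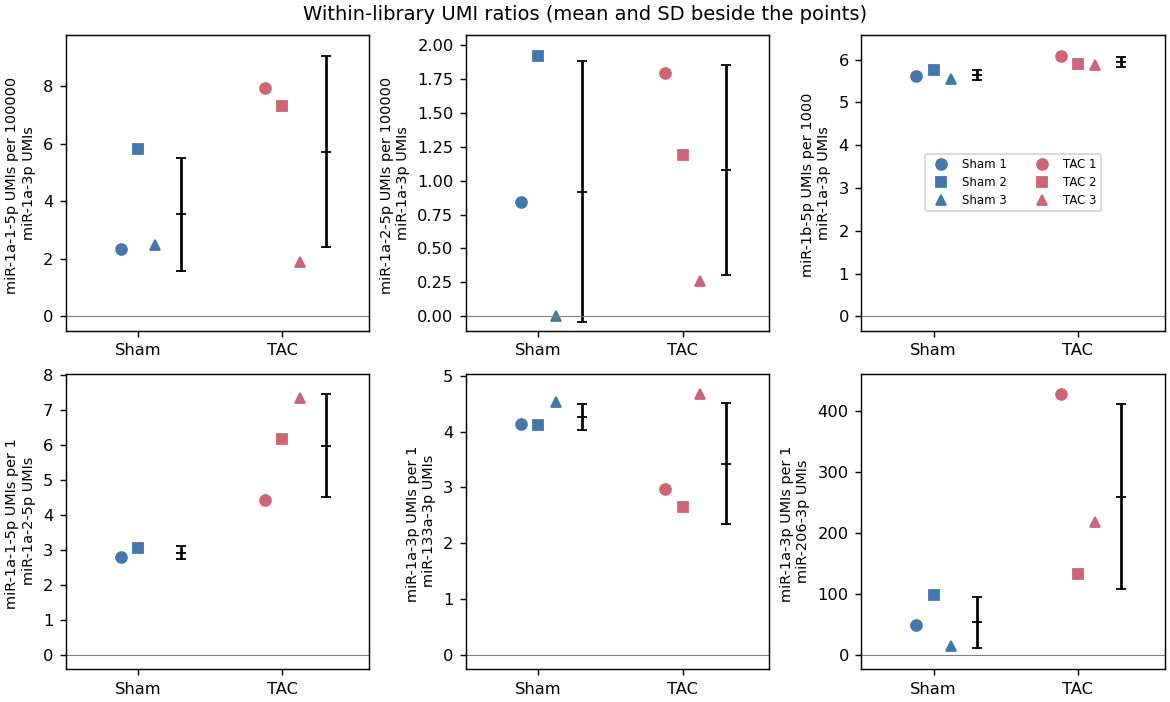
UMI ratios within each library for 6 pairs of strands (vertical axes, linear, unit given on each axis), with Sham in blue, TAC in red and the mean and SD of each group beside the points. The panel of miR-1a-1-5p to miR-1a-2-5p has no point for Sham 3, where the ratio is undefined, and the ratio of miR-1b-5p to miR-1a-3p stays between 5.54 and 6.08 per 1000.

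The antisense strand followed the guide closely. miR-1b-5p per 1000 miR-1a-3p UMIs was 5.61, 5.76 and 5.54 in Sham and 6.08, 5.90 and 5.87 in TAC. All TAC values lay above all Sham values, with a narrow gap. The means were 5.64 ± 0.115 and 5.95 ± 0.115 (SD, n = 3), a log2 difference of 0.078 (exact permutation p = 0.1, the smallest possible, adjusted p = 0.3). In the edgeR fit with miR-1a-3p UMIs as the library size, the same log2 difference of 0.078 had a 95% interval from -0.40 to 0.55. Its adjusted p was 0.853, where 21.2% of 321 miRNAs passed. That fit shares its estimate of spread among miRNAs, so this interval does not measure the spread of this ratio alone. The SD of the log2 ratio itself was 0.029 in Sham and 0.028 in TAC.

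The spread of this ratio was the smallest of any miRNA tested. The SD over 6 libraries of the log2 ratio to miR-1a-3p was 0.0499 for miR-1b-5p, number 1 of 321, where the median was 0.584. Counting error alone would give 0.0194. Next came miR-193a-5p at 0.134, miR-126a-3p at 0.149, miR-671-5p at 0.178 and miR-378c at 0.184. For miR-193a-5p and miR-671-5p, with few UMIs, counting alone would give 0.151 and 0.157, so their observed spread is about that of counting and does not show that their ratio varied more than that of miR-1b-5p. For miR-126a-3p and miR-378c counting alone would give 0.00578 and 0.0322. miR-133a-3p, made from the same transcripts as miR-1a-3p, was at 0.340, and miR-1a-1-5p, a strand of the same hairpin, at 0.909. The value of miR-1a-1-5p rests on 310 UMIs, where counting alone would give 0.259, and that of miR-1b-5p on 38694 UMIs.

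**Figure D4:**
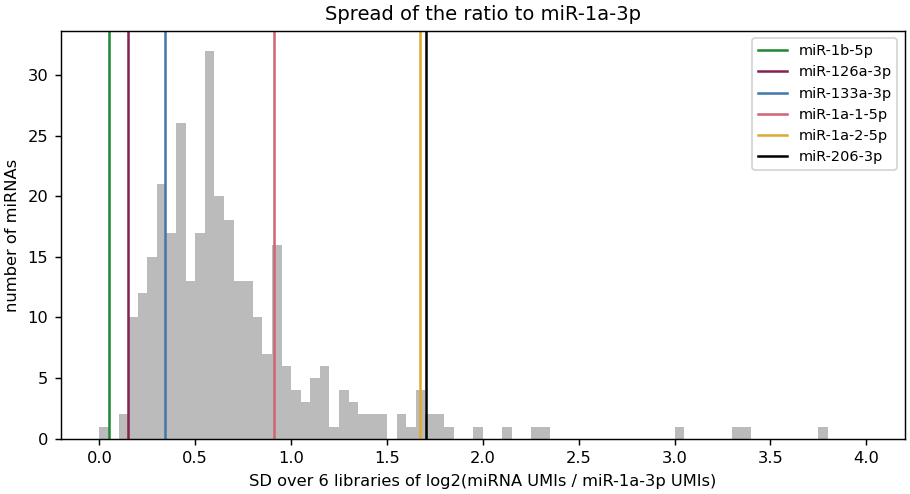
Histogram over 321 miRNAs of the SD over 6 libraries of the log2 ratio of each miRNA's UMIs to those of miR-1a-3p (horizontal axis) against the number of miRNAs (vertical axis), with lines at named miRNAs. miR-1b-5p sits at 0.0499, left of all others, and miR-206-3p at 1.70.

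Other antisense small RNA was looked for among the listed unannotated sequences. Of 1832 such sequences, 1147 began within 1 of 2202 annotated hairpins on its own strand and 0 began opposite a hairpin only. Of the 30 most abundant miRNAs, 22 could be placed, and 0 of these 22 had listed unannotated UMIs opposite their hairpin. Sequences named as a mature miRNA, as miR-1b-5p is, are outside this count. On the plus strand of the Mir1b hairpin itself 0 listed unannotated sequences began, beside 38694 UMIs of miR-1b-5p. At Mir206 there were 13 with 1081 UMIs, beside 94048 UMIs of miR-206-3p. Whether the UMIs of miR-1b-5p came from a transcript of Mir1b was not tested.

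Reads per UMI show how often each tagged molecule was read. For miR-1a-3p they were 1.21, 1.15 and 1.07 in Sham and 1.17, 1.12 and 1.14 in TAC, or 1.16 over all libraries. The values followed the number of its UMIs in the library, from Sham 3 at the bottom to Sham 1 at the top, with Sham 2 and TAC 3 exchanged. miR-133a-3p was at 1.06, and the 26 miRNAs with a mean of 10000 to 100000 UMIs had a median of 1.02. miR-1b-5p was at 1.007, the lowest of the 49 miRNAs with a mean of 1000 to 10000 UMIs, whose median was 1.020. Whether UMIs of the most abundant strands are undercounted or their reads overcounted was not tested. Counting reads in place of UMIs gave miR-1a-3p a share of 48.7% ± 5.64 (Sham) against 48.6% ± 3.87 (TAC).

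**Figure D5:**
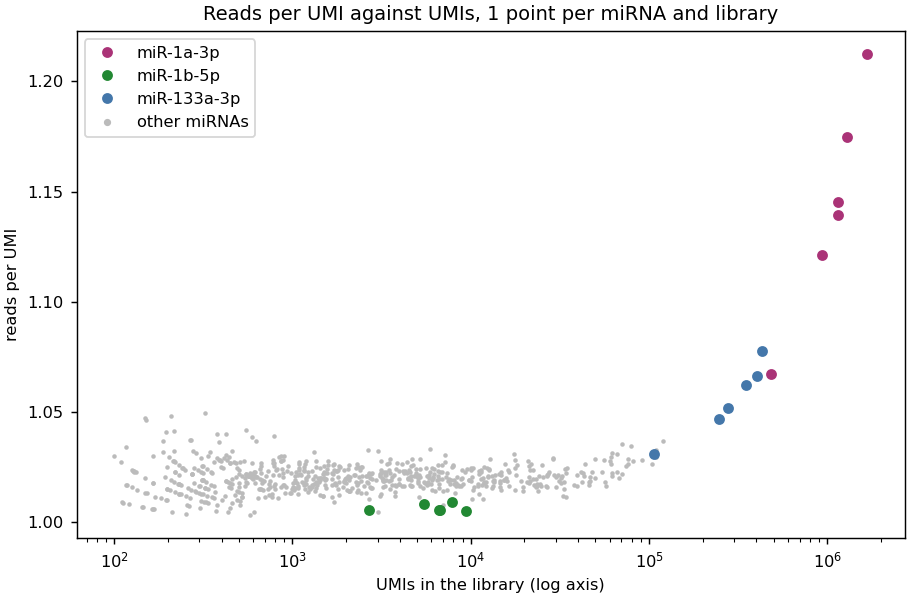
Reads per UMI (vertical axis, linear, not starting at 0) against UMIs in the library (horizontal log axis), with 1 point for each miRNA and library. miR-1a-3p rises from 1.07 to 1.21 with its UMIs, miR-133a-3p lies on the way, and the points of miR-1b-5p lie at the lower edge of the other miRNAs.

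Unannotated sequences that began within the Mir1a-1 and Mir1a-2 hairpins, on the strand of the hairpin, moved with miR-1a-3p. How they relate to the mature strands was not tested. There were 119 at Mir1a-1 with 147626 UMIs and 80 at Mir1a-2 with 48432 UMIs. As a percentage of miR-1a-3p UMIs the 199 together were 2.90%, 2.87% and 2.77% in Sham and 3.06%, 2.94% and 3.03% in TAC. The TAC values lay above the Sham values (2.84% ± 0.0674 and 3.01% ± 0.062, SD, n = 3), with the lowest exact permutation p the design allows, 0.1. The file places each sequence at 1 position, so the split between the loci is that of its placement and not of the transcripts.

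Of the miR-206 and miR-133 partners, miR-206-3p passed the test, and miR-133a-3p, miR-133a-5p and miR-133b-3p did not. The rare miR-133c, with 55 UMIs over all libraries, also passed (log2 fold change 1.74, SE 0.41, adjusted p = 0.0247 by edgeR). Its levels were 1.94, 2.39 and 0.703 CPM in Sham and 5.85, 7.34 and 5.47 CPM in TAC. miR-133a-3p, a repressor of serum response factor made from the same clusters, was at 111896, 111073 and 75398 CPM in Sham and 168429, 171457 and 122732 CPM in TAC. The groups did not overlap after TMM scaling, but its shares of miRNA UMIs, 9.10% to 11.8% in Sham and 10.8% to 16.3% in TAC, did. Its log2 fold change was 0.63 (SE 0.21, adjusted p = 0.0697 by edgeR). It was 0.64 with the replicate block (adjusted p = 0.00926) and 0.37 with library sizes only (adjusted p = 0.215), and the adjusted p over all settings ran from 0.00267 to 0.283. miR-1a-3p UMIs per miR-133a-3p UMI were 4.14, 4.13 and 4.52 in Sham and 2.97, 2.65 and 4.67 in TAC, a log2 difference of -0.36 (exact permutation p = 0.4, adjusted p = 0.75), or -0.56 without both libraries numbered 3. In the edgeR fit relative to miR-1a-3p, miR-133a-3p differed by 0.40 (adjusted p = 0.186). In miR-1a-3p UMIs per miR-133a-3p UMI, TAC 1 and TAC 2 were below every Sham library, and TAC 3 was above every one. miR-133a-5p, the passenger of miR-133a, had a log2 fold change of 0.30 (adjusted p = 0.478). miR-133b-3p, from the miR-206 cluster, had 0.80 (adjusted p = 0.0527, with 0.00684 for the replicate block and 0.162 for library sizes only). It is nearly identical to miR-133a-3p, so the pair can share reads.

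miR-206-3p fell while miR-1a-3p did not pass the test. It was at 9513, 4699 and 23027 CPM in Sham and 1170, 3418 and 2623 CPM in TAC, highest in Sham 3, with no overlap of the groups. Its log2 fold change was -2.37 (SE 0.62, adjusted p = 0.0342). The call was lost on leaving out Sham 1, Sham 3, TAC 1, TAC 2 or TAC 3 singly (adjusted p from 0.0651 to 0.109), with log2 fold changes of -2.04 to -2.71 and, without Sham 3, -1.51. It held with the replicate block (-2.26, adjusted p = 0.0163) and without both libraries numbered 3 (-1.64, adjusted p = 0.0475). For each miR-206-3p UMI there were 48.7, 97.6 and 14.8 miR-1a-3p UMIs in Sham and 428, 133 and 218 in TAC. The log2 difference of this ratio was 2.49 with no overlap of the groups (exact permutation p = 0.1, the smallest possible, adjusted p = 0.3), and it was 1.75 without Sham 3. In the edgeR fit relative to miR-1a-3p, miR-206-3p differed by -2.77 (SE 0.72, adjusted p = 0.031).

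The miRNAs most like each member were named by Pearson's r of log2 CPM over the 6 libraries, as a description. The libraries share their scaling factors, and r over 6 points is imprecise. miR-1a-3p was most like miR-1b-5p (r = 0.99), miR-450b-5p (0.91) and miR-193a-5p (0.88). miR-1b-5p was most like miR-1a-3p, miR-450b-5p (0.93) and miR-3058-5p (0.90). The passengers were less like the guide, with r = 0.30 (miR-1a-1-5p) and 0.51 (miR-1a-2-5p) to miR-1a-3p. Their values rest on 12 to 102 and 0 to 23 UMIs per library, and counting noise alone can lower r. miR-1a-1-5p was most like miR-27a-3p (0.93), the erythroid miR-451a (0.93) and miR-196a-2-3p (0.92). miR-1a-2-5p was most like miR-15a-5p (0.98), miR-669a-3p (0.98, counted together with miR-669o-3p) and the leukocyte miR-142a-3p (0.97). The passengers had r = 0.84 with each other, and miR-1a-1-5p had 0.81 with miR-133a-3p, whereas miR-1a-3p had 0.64.

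Of 21 muscle-enriched miRNAs, which did not include miR-133c, 15 were listed and 14 tested. None rose, 2 fell (miR-206-3p and the slow-fibre miR-208b-3p, with 132, 28 and 87 UMIs in Sham against 0, 0 and 2 in TAC) and 12 did not pass, with a median log2 fold change of 0.24 against 0.04 over all tested miRNAs. Over all tested miRNAs 6.21% rose and 15.8% fell, so the count for the list was near the background. Their summed level was 455440 to 598534 CPM in Sham and 645499 to 716023 CPM in TAC, most of it miR-1a-3p and miR-133a-3p. The gap between these ranges came with the TMM factors, since the same sum as a share of miRNA UMIs was 54.9% to 62.6% in Sham and 61.1% to 62.8% in TAC. The 4 defining skeletal muscle miRNAs were listed in every library, and miR-208a-3p, of cardiac muscle, was not listed. Of the 98 listed mRNA transcripts 96 were matched to a gene, and 0 belonged to the 31 reported miR-1 target genes. Target levels were therefore not measured here.

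Some liver and epithelial markers moved with the groups, where 6.21% of all tested miRNAs rose and 15.8% fell. Of 4 liver miRNAs 2 rose, miR-122-5p and miR-122-3p. The summed level of the liver list, 138 to 282 CPM in Sham and 256 to 2421 CPM in TAC, overlapped between groups. All 3 listed epithelial miRNAs fell (miR-200a-3p, miR-200b-3p and miR-429-3p), from 19.0 to 65.6 CPM in Sham to 1.49 to 7.02 CPM in TAC, and miR-200c-3p and miR-141-3p were not listed. Of the tested erythroid (2), immune (6), endothelial (2), fibroblast (4) and smooth muscle (2) markers, 0 passed. The erythroid sum, 50.6 to 123 CPM in Sham and 75.0 to 167 CPM in TAC, and the immune sum, 1404 to 1921 CPM and 1384 to 1506 CPM, overlapped between groups. As shares of miRNA UMIs the immune sums did not overlap, at 0.147% to 0.204% in Sham and 0.121% to 0.135% in TAC. The part of these markers in the values of the miR-1 strands was not tested.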

How the data were processed

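Small RNA of 3 Sham and 3 TAC muscle libraries was made from 100 ng of total RNA with the QIAseq miRNA kit, per the labels' protocols. The authors deposited raw counts of UMIs and of reads for miRNAs and other RNA classes, per the file headers. Per the submitters' processing notes the reads belong to build GRCm38. Which aligner and counting rules were used is not given. Columns were matched through the sample descriptions.

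UMI counts of all listed miRNAs were tested with edgeR 4.0.16 in R 4.3.3 (TMM scaling, filterByExpr at min.count 10 and min.total.count 15, quasi-likelihood F test on both sides, Benjamini-Hochberg over 322 miRNAs, threshold 0.05). SE and intervals come from the fold change, its F statistic and the degrees of freedom. For ratios and shares an exact permutation test on both sides was used, on log2 ratios with 0.5 UMI added to both counts, a pseudocount chosen when the ratios were computed. Counts of 322 miRNAs were simulated, and those that passed the filter again were scored. Log2 changes of 1 were called in 51.6% of 93 and of 2 in 98.9% of 95, and unchanged miRNAs in 1.74% of 115. Most simulated miRNAs were changed, a larger part than the 22% called in the data. That makes the adjustment more lenient, so these rates may overstate the power here. Log2 changes below 1, such as those of the members, were not simulated. Alternatives covered scaling, filter, DESeq2 1.42.0, limma-voom (limma 3.58.1), reads, the replicate block and leaving out libraries.

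Named miRNAs were the members, their miR-133 and miR-206 partners, the 3 most alike and the 2 neighbours in level on either side of each member, the 5 most abundant, and up to 4 called members of each list. The members, lists and tests were chosen with earlier results of these data known. miR-133b-5p and miR-206-5p were not listed. Mature sequences are from RefSeq. Libraries of a group differed by more than sampling noise, which does not show that they are from separate mice. Each library was counted once.

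Deviations from group means correlated between same-numbered libraries with r = 0.33, 0.31 and 0.59 across miRNAs, all above 0.1. The numbers were read as pairs in the replicate block only, an alternative setting. The main fit and the main permutation tests used the group alone. What the numbers mark is not given in the labels. Crossed pairings of numbers 1 and 2 gave r = 0.34 (Sham 1, TAC 2) and 0.39 (Sham 2, TAC 1). These values are no lower than those of the same-numbered pairs 1 and 2, so r did not pair these libraries. It set apart only the libraries numbered 3, whose r with differently numbered libraries of the other group ran from -0.50 to -0.39.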

Additional observations from a re-analysis of the deposited data

How the results depend on the processing

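The number of tested members past the threshold was 0 under every setting run. miR-1b-5p and miR-1a-1-5p kept a log2 fold change above 0 throughout (0.069 to 0.46, and 0.53 to 1.51), with adjusted p from 0.177 to 0.862 and from 0.0927 to 0.633. The log2 fold change of miR-1a-3p was -0.0019 with library sizes only and -0.0058 with library sizes without miR-1a-3p, and 0.20 to 0.39 leaving out 1 library (adjusted p 0.200 to 0.999 over all settings). miR-1a-2-5p was at -0.00018 and -0.061 with those library sizes, and from -0.38 to 1.11 leaving out 1 library. With library sizes only, the median over all tested miRNAs was -0.24. The cause of the changes of sign on leaving out a library was not tested. The count of all miRNAs past the threshold was 111 with the replicate block, 129 without both libraries numbered 3 and 17 to 73 leaving out 1 library.

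The difference in share of miR-1a-3p was 0.877 points over the UMIs of all RNA classes and -2.53 to 1.33 leaving out 1 library. For all members together it was 0.896 and -2.53 to 1.35. The log2 difference of miR-1a-2-5p to miR-1a-3p was -0.56 to 1.56 leaving out 1 library. That of miR-1a-1-5p to miR-1a-2-5p was 0.156 with 1 UMI added, 0.83 without both libraries numbered 3 and -0.65 to 0.95 leaving out 1 library. The other ratios kept their direction.

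The replicate block changed no call among the members. Their log2 fold changes with it were 0.28 (miR-1a-3p), 0.36 (miR-1b-5p), 0.92 (miR-1a-1-5p, adjusted p = 0.0968) and 0.44 (miR-1a-2-5p). With 3 pairs, an exact sign-flip permutation test of a ratio cannot go below 0.25. miR-133b-3p and miR-133a-3p ranged in adjusted p from 0.00648 to 0.196 and from 0.00267 to 0.283 over all settings. miR-133b-3p passed with RLE factors, upper-quartile factors, DESeq2, the block, without TAC 3 and without both libraries numbered 3, and miR-133a-3p with upper-quartile factors, the block, without TAC 3 and without both. Depth limits the passengers: 310 and 73 UMIs were counted in all 6 libraries.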
